A study of Mus musculus with 21 samples.

Results

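The genes described here encode the proteins of the cytosolic ribosome and were followed in sorted mouse brain endothelial cells, the cells that line the vessels of the brain. They were taken from the authors' RPKM table by name: Rpl or Rps followed by a number, Rplp0 to Rplp2, and Rpsa. RPKM is a read number scaled to the length of the gene and the depth of the library. Of 24206 gene names, 104 fitted the pattern. The 10 Rps6k names, which belong to kinases, and 6 names of pseudogenes marked -ps were removed. Of the 88 names left, 85 had a mean RPKM of at least 1, and these were the same 85 in both experiments of the series. Rpl39l (0.991 RPKM on average in the stroke experiment), Rpl10l and Rpl3l fell below that minimum. They are close relatives of Rpl39, Rpl10 and Rpl3. The lowest gene just inside the minimum was Rps4l, at 5.68 RPKM in the stroke experiment, and in the beta-catenin experiment it was Rps19bp1, at 1.32. By name 50 of the 85 belong to the large subunit and 35 to the small one. The rule also took a few names that are not standard ribosomal proteins. Rps19bp1 encodes a protein that binds Rps19, Rpl7l1 a ribosome assembly factor, and the annotation types Rpl37rt and Rps4l as transcribed processed pseudogenes.

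Ribosomal proteins are needed in matched amounts for each new ribosome, and their genes are among the most uniformly regulated of the mammalian genome. The small subunit reads the messenger RNA, and the large subunit joins the amino acids and feeds the new chain into its exit tunnel. Messenger RNAs of ribosomal proteins start with an oligopyrimidine tract, the TOP motif, through which the kinase mTOR and the binding protein Larp1 set their translation and stability, and Myc is known to raise their transcription. In the adult brain endothelial cells rarely divide, and cells that enter growth are known to raise ribosome production.

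All mice were adult C57BL/6, aged 12 to 20 weeks, and the sorted cells were live, CD31-positive, and negative for CD45 and PDGFRb. In the stroke experiment mice had an occlusion of the middle cerebral artery of 1 h and 1 d of reperfusion, and there were 4 groups of 4 libraries. WT-NS and WT-ST were cells of the non-stroke and the stroke hemisphere of Gpr124 flox/+; ROSA-CreER+ mice, which carry 1 floxed allele and so are not wild type. Cko-NS and Cko-ST were the same hemispheres of Gpr124 flox/-; ROSA-CreER+ mice, in which the recombinase is not restricted to endothelial cells. Gpr124 is a receptor that passes Wnt7 signals to brain endothelium. The non-stroke hemisphere came from operated mice, and no mouse without occlusion was included. In the second experiment, without stroke, Bcat (n = 3) was Ctnnb1 lox(ex3)/+; Cdh5-CreER+, in which Cre active in endothelial cells can remove the exon that marks beta-catenin for breakdown, and WT (n = 2) was Ctnnb1 +/+; Cdh5-CreER+. Per the labels the stroke libraries were female except Cko-ST 3 and Cko-ST 4, and the 5 others were male. The labels do not say whether libraries of a group came from separate mice, and p-values here rest on the spread among libraries, which may be technical. The stroke libraries held polyadenylated RNA amplified with a 3' kit and the others total RNA amplified with another kit, so levels were not compared between the experiments.

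The labels were checked against the data. Y-linked genes summed to 189 RPKM in Cko-NS 4, labelled female, and to 0.423 in Cko-ST 3, labelled male, where Xist was at 89.7, so the RNA of both libraries went against the labelled sex. Both stayed in their groups, and counts without them are given with the results. Gpr124 was between 2.65 and 7.58 RPKM in WT-NS, 2.92 and 8.12 in WT-ST, 0.994 and 4.85 in Cko-NS, and 0.5002 and 1.72 in Cko-ST. Cko-ST lay below WT-ST, while Cko-NS overlapped WT-NS, and 3' reads outside a deleted part would not show the deletion. Axin2, a target of beta-catenin, was between 44.2 and 54.5 RPKM in Bcat and at 26.3 and 28.3 in WT. The 14 endothelial markers summed to between 2423 and 4378 RPKM in the stroke libraries, and all 14 were present. Haemoglobin RNA was also high, since the red-cell and platelet list summed to between 1396 and 36901 RPKM. Depth, estimated at 4.70 to 19.6 M reads for the stroke libraries, is not given for the other 5.

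Annotated start sites were searched for the sequence feature for which these genes are known. RefSeq promoter windows on GRCm38.p6 were found for 64 of the 85 genes. A run of at least 8 pyrimidines (C or T, gene strand) within 25 bases of the annotated start was present in 29 of them (45.3%), against 19.4% of 27025 genes. The letters CTTTCC, gene strand, stood within the same window in 10 of 64 (15.6%), against 2.42% of all genes, and may overlap such a run. Over the whole window of 300 bases, on either strand, GGAAGT was found in 50% against 24.1% and CACGTG, the E-box read by Myc, in 7.81% against 7.24%. The windows of 30 bases shown next hold 15 bases before and 15 from the RefSeq start, 5′ to 3′, with the longest run of C or T in capitals. The first 5 are shown for a long run that spans the start, and the last 4 because their genes had some of the lowest p-values for stroke while their run is short.
Rps6 (chr4:86857353-86857382, minus strand): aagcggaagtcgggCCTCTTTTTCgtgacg
Rpl7a (chr2:26910792-26910821, plus strand): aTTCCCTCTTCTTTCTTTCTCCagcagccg
Rps18 (chr17:33955651-33955680, minus strand): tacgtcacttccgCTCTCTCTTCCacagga
Rpl35 (chr2:39005117-39005146, minus strand): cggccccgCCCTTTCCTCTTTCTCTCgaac
Rplp2 (chr7:141447636-141447665, plus strand): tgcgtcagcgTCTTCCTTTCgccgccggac
Rps2 (chr17:24720048-24720077, plus strand): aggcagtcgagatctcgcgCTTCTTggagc
Rpl10a (chr17:28328456-28328485, plus strand): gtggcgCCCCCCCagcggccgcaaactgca
Rpl10 (chrX:74270801-74270830, plus strand): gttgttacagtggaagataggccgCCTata
Rpl12 (chr2:32961697-32961726, plus strand): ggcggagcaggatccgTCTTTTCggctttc
The run was 21 bases in Rpl7a, 18 in Rpl35 and 10 in Rps6, and 3 bases in Rpl10. A match shows letters in a window and not a start site measured in these cells.

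Levels of the 85 genes spanned more than 2 orders of magnitude. In the stroke experiment the highest means over 16 libraries, per length, were Rpl41 at 1077 RPKM, Rpl39 at 1053, Rpl37rt at 990.2, Rps25 at 951.3 and Rps20 at 711. Rpl41 is the smallest ribosomal protein and Rpl39 lines the exit tunnel. The lowest were Rps4l at 5.68, Rpl7l1 at 6.60, Rps19bp1 at 7.16, Rpsa at 18.1 and Rpl14 at 37.9. Rpsa encodes a small-subunit protein also known as the laminin receptor precursor. The gene lengths behind the RPKM values were not given, and with a 3' kit such an order can depend on the length used. In the beta-catenin experiment Rps27rt (461 RPKM), Rpl41 (429), Rps27 (278) and Rps4x (226) were among the highest, and Rps19bp1, Rps4l (6.98), Rpl7l1 (10.1), Rpl37rt (15.7) and Rpsa (24.1) lowest. Between libraries of a group the genes were steadier than most: the median SD of log2(RPKM + 1) was 0.31 in WT-NS, 0.24 in WT-ST, 0.26 in Cko-NS and 0.33 in Cko-ST, against 0.38, 0.38, 0.43 and 0.39 over all genes tested. The 2 sets were not matched for level, so the lower spread is not shown to be a trait of these genes.

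In control mice the ribosomal protein genes were higher in the stroke hemisphere almost as a block. They made up 4.43% ± 0.666 (SD, n = 4) of the summed RPKM in WT-NS and 7.17% ± 0.511 in WT-ST. Library by library the share was 4.48, 4.83, 4.92 and 3.47% in WT-NS and 7.12, 7.04, 6.65 and 7.87% in WT-ST, and the groups did not overlap. In limma's moderated test on log2(RPKM + 1), with Benjamini-Hochberg adjustment over 9838 genes and a threshold of 0.05, 60 of the 85 rose and 0 fell. Over all genes tested 8.46% rose and 4.84% fell. At an unadjusted p under 0.05, 74 were higher and 0 lower, against 15.3% and 11.8% of all genes. The median log2 fold change was 0.84 over the 85 and 0.01 over all genes, and the fold change was above 0 in 85 of 85 (range 0.07 to 2.28). After median-of-ratios scaling, 60 rose and the median over the 85 was 0.82. Values of WT-ST lay above every WT-NS value in 67 of the 85, and in 11.9% of all genes. By subunit, 37 of 50 large-subunit names and 23 of 35 small-subunit names rose, with medians of 0.95 and 0.73.

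**Figure D1:**
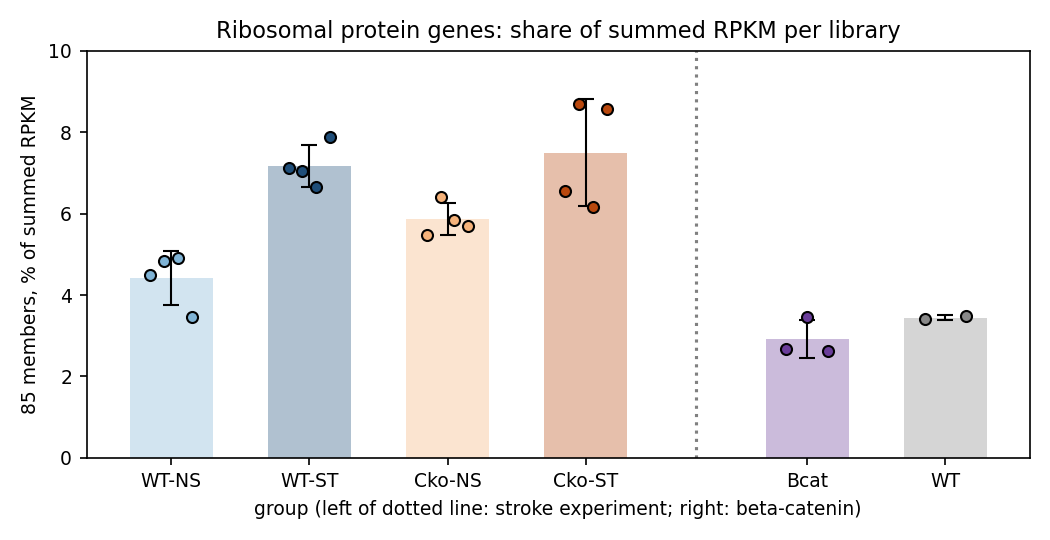
Share of the summed RPKM of each library that came from the 85 ribosomal protein genes, in percent. Bars are group means, points are libraries and error bars are SD: WT-ST (7.17%) stood above WT-NS (4.43%), with Cko-NS at 5.86%, Cko-ST at 7.50%, Bcat at 2.92% and WT at 3.45%, the last 2 from another kit.

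WT-NS 4 was the library with the lowest ribosomal protein RNA. The median over the 85 genes of the log2 ratio to the mean of the 16 libraries was -0.90 there and between -0.50 and -0.40 in the other WT-NS libraries, against 0.15 to 0.48 in WT-ST. That library also had the highest microglia and macrophage marker sum of the stroke experiment, 122 RPKM against 8.17 to 51.1 in the other 15, with 6 of 13 markers above 1 RPKM and 0 at 0. Most of that sum was Aif1, which reached 76.7 RPKM there and was at 0 in 9 of the 16 libraries. WT-NS 1 and Cko-NS 3 had more of the markers above 1 RPKM, 7 of 13 each. Csf1r and Cx3cr1 stayed at or under 0.711 RPKM in all 16. The part of microglia in the result was not tested. Without WT-NS 4, 47 of the 85 rose and the median was 0.74. Oligodendrocyte markers (8 of 8 in the table) summed to 191 to 1050 RPKM in WT-NS, 30.4 to 387 in WT-ST, 45.5 to 540.0 in Cko-NS and 22.2 to 283 in Cko-ST, and their part in the result was not tested. The astrocyte list ran from 225 to 283 RPKM in WT-NS, 716 to 1164 in WT-ST, 305 to 361 in Cko-NS and 992 to 1075 in Cko-ST. Nearly all of that sum was Gja1. Of the other 6 markers, Slc1a3 reached 14.2 RPKM and Aldoc 6.21, and Slc1a2, Gfap, Aqp4 and Aldh1l1 stayed at or under 0.758. Leukocyte markers (10 of 11 in the table) summed to 0 to 7.68 RPKM in WT-NS, 2.06 to 42.6 in WT-ST, 8.94 to 83.7 in Cko-NS and 4.55 to 19.8 in Cko-ST. S100a8 reached 60.001 RPKM, S100a9 32.9 and Ptprc 8.92, while Ccr2, Cd3e and Nkg7 were at 0 in all 16 libraries. Mural markers (9 of 9) summed to 50.5 to 70.6 RPKM in WT-NS and 12.5 to 49.2 in WT-ST, without overlap. The part of these cells in the result was not tested either. In such bulk samples more RNA per cell and a change in the cells present cannot be told apart.

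**Figure D2:**
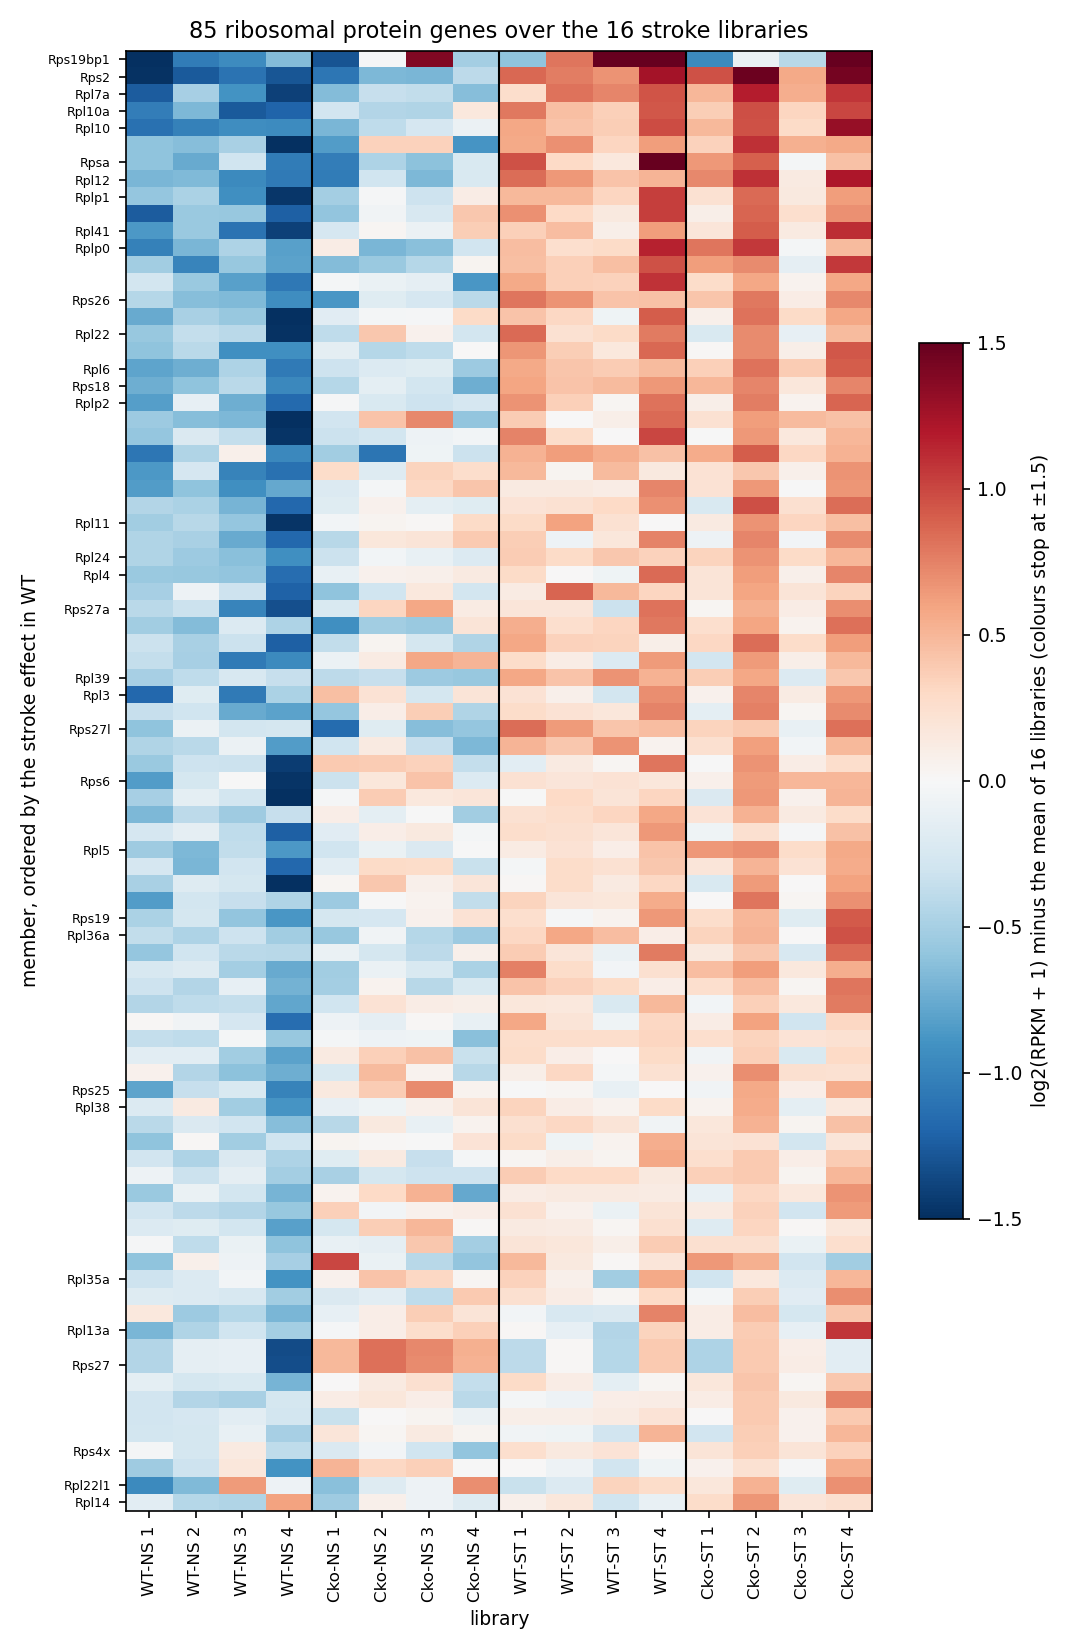
Level of each of the 85 genes (rows, ordered by the stroke effect in control mice) in the 16 stroke libraries (columns), as log2(RPKM + 1) minus the mean of the 16, with colours stopped at 1.5 and names given for some of the genes described in the text. Rows are mostly below their mean in WT-NS, near it in Cko-NS and above it in WT-ST and Cko-ST, and WT-NS 4 is the lowest column.

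Among small-subunit proteins Rps2, which lies at the entry of the messenger RNA channel, had the lowest p. Rps2 was at 39.6, 46.7, 52.1 and 45.8 RPKM in WT-NS and at 206, 194, 181 and 269 in WT-ST. Every stroke library was more than 3-fold above every non-stroke library, and the log2 fold change (± standard error, here and below) was 2.17 ± 0.21, adjusted p = 2.12e-06. Rps18, at the head of the small subunit, had 118 ± 19.2 RPKM in WT-NS and 272 ± 19.2 in WT-ST (1.21 ± 0.17, adjusted p = 0.000105). Rps26, which contacts the messenger RNA upstream of the start codon, had 177 ± 25.1 RPKM in WT-NS and 422 ± 54.4 in WT-ST (1.25 ± 0.18, adjusted p = 0.000172). Both groups were separate for each of these genes.

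Large-subunit genes with the lowest p were Rpl10a, Rpl10, Rpl7a and Rpl6. Rpl10a was at 106, 138, 91.0 and 94.9 RPKM in WT-NS and at 381, 299, 281 and 421 in WT-ST. Rpl10a sits in the flexible L1 stalk, which moves spent transfer RNA out of the ribosome, and its log2 fold change was 1.68 ± 0.20, adjusted p = 2.82e-05. Rpl10 was at 219, 236, 250.4 and 248 RPKM in WT-NS and at 714, 643, 616 and 940.4 in WT-ST. Rpl10 is X-linked and completes the catalytic centre late in assembly, and it rose by 1.59 ± 0.20, adjusted p = 3.92e-05. Rpl7a rose from 23.5 ± 7.05 to 77.4 ± 14.6 RPKM (1.70 ± 0.22, adjusted p = 5.89e-05), Rpl6 from 74.97 ± 12.9 to 174 ± 10.1 (1.22 ± 0.17, adjusted p = 7.82e-05), and Rpl24, at the bridge between the subunits, from 120.0 ± 16.4 to 237 ± 8.56 (0.99 ± 0.14, adjusted p = 0.000106). In Rpl24 the stroke libraries differed from each other by little, with an SD of 8.56 RPKM.

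The stalk recruits elongation factors through Rplp0, which anchors it, and the acidic proteins Rplp1 and Rplp2, and all 3 genes rose. Rplp1 was at 101, 109, 80.3 and 54.9 RPKM in WT-NS and at 213, 213, 191 and 313 in WT-ST. Log2 fold changes were 1.44 ± 0.23, adjusted p = 0.000382 for Rplp1, 1.19 ± 0.23, adjusted p = 0.00206 for Rplp2 and 1.29 ± 0.26, adjusted p = 0.00234 for Rplp0. Rpl12, which lies at the base of the stalk, went from 69.9 ± 9.43 to 193 ± 24.7 RPKM (1.45 ± 0.22, adjusted p = 0.00029). WT-ST 4 held the highest Rplp0, Rplp1 and Rplp2 values of its group.

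Rpl5 and Rpl11 travel with 5S ribosomal RNA and, when free, bind Mdm2 and so stabilise p53. Rpl5 had 62.9 ± 9.17 RPKM in WT-NS and 112 ± 12.0 in WT-ST (0.82 ± 0.15, adjusted p = 0.00137), and Rpl11 had 80.5 ± 23.1 RPKM in WT-NS and 161 ± 28.2 in WT-ST (1.03 ± 0.21, adjusted p = 0.00276). Exit-tunnel genes rose as well: Rpl4 from 287 ± 51.1 to 581 ± 181 RPKM (0.99 ± 0.20, adjusted p = 0.00283) and Rpl39 from 775 ± 58.0 to 1465 ± 104 (0.92 ± 0.15, adjusted p = 0.000422). Rpl39 was at 706, 765, 846 and 785 RPKM in WT-NS and at 1491, 1342, 1590.0 and 1438 in WT-ST. The 2 groups of Rpl39 are tight, and their closest libraries are 846 and 1342 RPKM. Rpl41 had 505 ± 124 RPKM in WT-NS and 1282 ± 194 in WT-ST (1.36 ± 0.22, adjusted p = 0.000532).

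Rps6, the classic substrate of S6 kinase downstream of mTOR, was less clear-cut. Rps6 was at 275, 409, 492 and 177 RPKM in WT-NS and at 575, 557, 574 and 553 in WT-ST. The 4 stroke libraries agree to within an SD of 11.4 RPKM, while the non-stroke libraries spread over more than 2-fold. Its log2 fold change was 0.84 ± 0.25, adjusted p = 0.03, and the call ended in 12 of 21 alternatives. Rps27a, made as a fusion with ubiquitin, had 86.8 ± 27.5 RPKM in WT-NS and 172 ± 57.6 in WT-ST, with WT-NS 2 and WT-ST 3 at nearly one level (0.97 ± 0.26, adjusted p = 0.0179). Its call ended in 4 of 21 alternatives, that of Rpl3, at the catalytic centre, in 6 (0.90 ± 0.25, adjusted p = 0.0223), that of Rpl7 in 10 (0.64 ± 0.19, adjusted p = 0.0308), and that of Rps19 in 5 (0.78 ± 0.22, adjusted p = 0.0257). Rps19 and Rpl35a are genes mutated in Diamond-Blackfan anaemia. Rpl35a did not pass, with 176 ± 41.6 RPKM in WT-NS and 249.9 ± 74.7 in WT-ST (0.48 ± 0.24, adjusted p = 0.2). Just outside the threshold were Rps25 (0.57 ± 0.19, adjusted p = 0.054) and Rpl38 (0.56 ± 0.19, adjusted p = 0.0606), known for its part in the translation of Hox messages. Rpsa rose by 1.45 ± 0.31, adjusted p = 0.00415. Rpsa was at 9.88, 8.75, 12.4 and 6.998 RPKM in WT-NS and at 31.0, 19.3, 17.4 and 52.4 in WT-ST. WT-ST 4 stood well above the other WT-ST libraries.

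**Figure D3:**
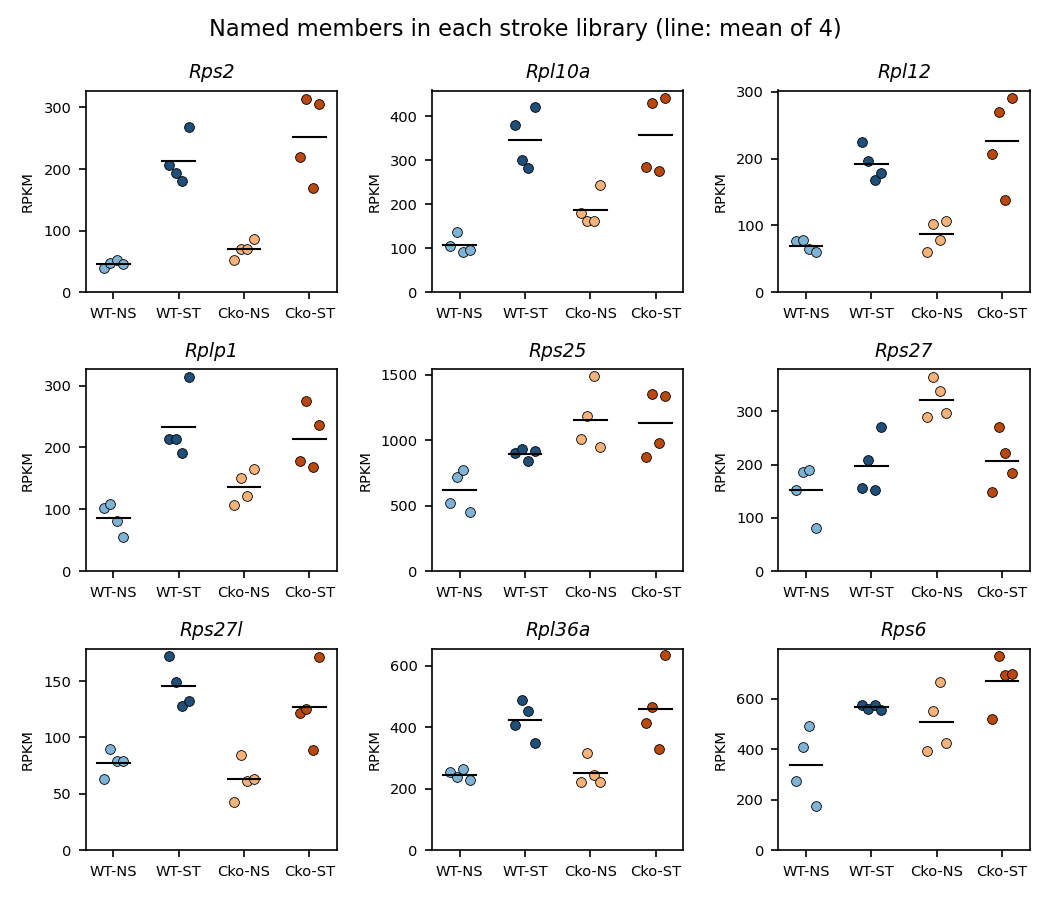
RPKM of 9 named genes in each stroke library, 1 panel a gene, with a line at the mean of 4 libraries. Rps2, Rpl10a, Rpl12, Rplp1, Rps25, Rps27l, Rpl36a and Rps6 show WT-ST wholly above WT-NS. Rps25 is highest in the 2 knockout groups, and Rps27 is highest in Cko-NS.

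A smaller number of genes passed in the knockout mice, again in 1 direction. The share of summed RPKM was 5.48, 6.40, 5.84 and 5.69% in Cko-NS and 6.56, 8.68, 6.17 and 8.57% in Cko-ST, so the groups overlapped between Cko-NS 2 and Cko-ST 3. With the same test 26 of the 85 were called higher and 0 lower, where 6.44% of all genes rose and 8.71% fell. At an unadjusted p under 0.05, 42 were higher and 2 lower, against 11.5% and 17.7% of all genes. Array weights in limma gave 26 higher and 2 lower. The median log2 fold change was 0.41 over the 85 and -0.13 over all genes tested, so the midpoint of all genes was itself shifted. After median-of-ratios scaling, which moved that midpoint to -0.01, 40 rose and the median was 0.57. Groups did not overlap in 29 higher and 2 lower genes, against 7.40% of all genes for higher and 11.4% for lower. The 2 lower names were in each case Rps27 and Rps27rt, described below as 1 measurement under 2 names. Without the 2 libraries whose RNA went against the labelled sex, 29 rose in knockouts and 66 in controls. Endothelial markers summed to between 2423 and 3146 RPKM in Cko-ST and between 2473 and 3623 in WT-ST, and Cko-ST lay below Cko-NS (3601 to 4378). Neuron markers (8 of 8) also lay lower in Cko-ST, at 5.15 to 8.94 RPKM against 11.4 to 60.9 in Cko-NS, and the astrocyte list lay higher. The part of these shifts in the result was not tested. Of the 60 genes called in control mice, 25 were also called in knockouts, and 1 gene, Rps4x, was called in knockouts alone.

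Rps2 again had the lowest p. Rps2 was at 52.5, 70.2, 69.8 and 85.7 RPKM in Cko-NS and at 219.6, 314, 169 and 306 in Cko-ST. Its log2 fold change was 1.82 ± 0.21, adjusted p = 1.67e-05, and the groups stayed apart. Rpl12 had 86.7 ± 21.7 RPKM in Cko-NS and 226 ± 68.9 in Cko-ST (1.35 ± 0.22, adjusted p = 0.000513), and Rpl7a had 33.1 ± 3.85 RPKM in Cko-NS and 85.7 ± 20.8 in Cko-ST (1.32 ± 0.22, adjusted p = 0.000578). Rpl10 rose by 1.11 ± 0.20, adjusted p = 0.000965, Rpl6 by 0.93 ± 0.17, adjusted p = 0.000914, Rps18 by 0.93 ± 0.17, adjusted p = 0.00108 and Rps26 by 0.94 ± 0.18, adjusted p = 0.00197. Cko-ST 2 and Cko-ST 4 were the higher libraries and Cko-ST 3 the lowest in Rpl10, Rpl12 and Rps26. Rpl39 rose by 0.75 ± 0.15, adjusted p = 0.00196 and Rpl5 by 0.71 ± 0.15, adjusted p = 0.00416, as the exit tunnel and 5S genes had in control mice, whereas Rpl4 (0.37 ± 0.20, adjusted p = 0.235) and Rpl11 (0.32 ± 0.21, adjusted p = 0.326) did not pass. Of the stalk, Rplp0 rose by 0.95 ± 0.26, adjusted p = 0.0178, a call that ended in 4 of 21 alternatives, while Rplp1 had 0.65 ± 0.23, adjusted p = 0.0648 and Rplp2 0.65 ± 0.23, adjusted p = 0.0662. Rpsa rose by 1.07 ± 0.31, adjusted p = 0.0262, a call that ended in 5 of 21 alternatives.

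The 4 X-linked genes are Rpl10, Rpl36a, Rpl39 and Rps4x, and all 4 rose in knockouts. Rps4x, whose human counterpart has a Y-linked copy, had 492 ± 76.8 RPKM in Cko-NS and 719 ± 45.6 in Cko-ST (0.56 ± 0.14, adjusted p = 0.0124), and in control mice 547 ± 88.7 RPKM in WT-NS and 663 ± 47.0 in WT-ST (0.29 ± 0.14, adjusted p = 0.199). Cko-NS 4 and Cko-ST 4, the 2 libraries with Y-linked RNA, had Rps4x at 395 and 754 RPKM, and Rps4x ended its call in 1 of 21 alternatives. Rpl36a had 251 ± 44.9 RPKM in Cko-NS and 461 ± 129.7 in Cko-ST (0.85 ± 0.18, adjusted p = 0.00393).

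Effects of stroke in the 2 genotypes come from separate libraries and could be compared directly. Across the 85 genes the 2 log2 fold changes correlated with r = 0.63, a description over genes that are not independent, and 77 were above 0 in both. The fold change was larger in control mice in 78 of 85, and in 61.8% of all genes. Tested as an interaction with limma, 0 genes of the 85 and 0 of all 9838 passed. At an unadjusted p under 0.05 the interaction was negative in 21 of the 85 and positive in 0 (32 and 0 with array weights), against 5.82% and 1.20% of all genes. Its median was -0.38 over the 85 and -0.14 over all genes, and -0.22 after median-of-ratios scaling, which left the midpoint of all genes at 0.00. With a length trend removed in each library the median over the 85 was -0.12. A difference between genotypes in the response to stroke was therefore not established for any single gene. The interaction terms with the lowest p included -1.07 ± 0.36, adjusted p = 0.681 for Rps27, -0.97 ± 0.33, adjusted p = 0.681 for Rps28 and -0.81 ± 0.28, adjusted p = 0.681 for Rpl8. The lowest value was -1.99 ± 0.99, adjusted p = 0.709 for Rps19bp1, and the highest were 0.45 ± 0.32, adjusted p = 0.796 for Rpl14 and 0.27 ± 0.20, adjusted p = 0.814 for Rps4x.

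**Figure D4:**
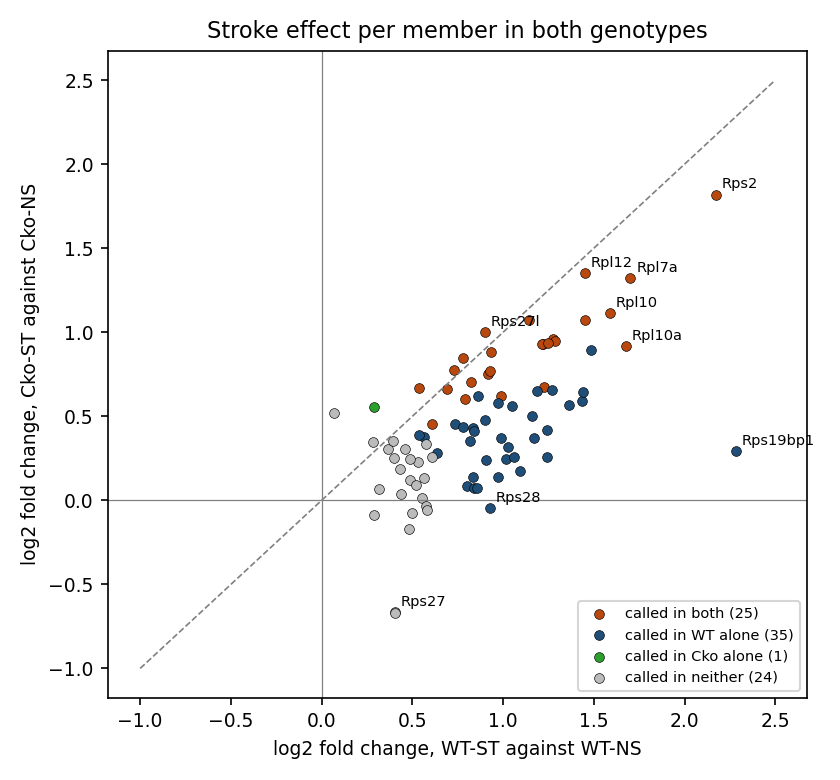
Log2 fold change of each of the 85 genes with stroke in control mice (horizontal) and in knockout mice (vertical), with equality as a dashed line. Most points lie above 0 on both axes and below the dashed line; colours mark the 25 genes called in both, 35 in control mice alone, 1 in knockout mice alone and 24 in neither.

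In the non-stroke hemisphere most of the genes had higher values in knockout than in control mice, though 1 passed the test. The share of summed RPKM was 4.43% ± 0.666 in WT-NS and 5.86% ± 0.393 (SD, n = 4) in Cko-NS, without overlap, and the log2 fold change was above 0 in 80 of 85 genes and in 60.5% of all genes, with medians of 0.47 and 0.11. Of the 85, 1 rose and 0 fell, where 0.224% of all genes rose and 0.0915% fell. At an unadjusted p under 0.05, 45 were higher and 0 lower, against 10.7% and 3.62% of all genes, and with array weights 10 rose. Groups did not overlap in 25 of 85, all higher, and in 6.66% of all genes for higher. Endothelial markers summed to between 2851 and 3435 RPKM in WT-NS and between 3601 and 4378 in Cko-NS, also without overlap. The same groups stood apart in leukocyte markers (0 to 7.68 against 8.94 to 83.7 RPKM), mural markers (50.5 to 70.6 against 23.4 to 33.7) and the astrocyte list (225 to 283 against 305 to 361). The part of these shifts in the result was not tested. These libraries include WT-NS, which also enters the stroke effect in control mice, so the 2 results share their low values. Without WT-NS 4 the median was 0.36, and with a trend on transcript length removed in each library it was 0.19 (0.25 with a GC trend removed). After median-of-ratios scaling the median over the 85 was 0.33.

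Rps25, used by some viral and cellular messages for cap-independent initiation, was the gene that rose. Rps25 was at 524, 718, 774 and 452 RPKM in WT-NS and at 1008, 1184, 1488 and 945 in Cko-NS. The log2 fold change was 0.92 ± 0.19, adjusted p = 0.0461, and the call ended in 11 of 21 alternatives, without WT-NS 1, WT-NS 4, Cko-NS 1, Cko-NS 2 or Cko-NS 3 among them. Rpl8 had 54.6 ± 5.29 RPKM in WT-NS and 104 ± 21.0 in Cko-NS (0.90 ± 0.20, adjusted p = 0.0564), and Rpl41 had 505 ± 124 RPKM in WT-NS and 996 ± 187 in Cko-NS (1.00 ± 0.22, adjusted p = 0.0597). At the other end were Rps27l (-0.33 ± 0.21, adjusted p = 0.506), Rps4x (-0.15 ± 0.14, adjusted p = 0.673) and Rpl39 (-0.10 ± 0.15, adjusted p = 0.807). Rpl39 and Rps27l rose with stroke in both genotypes.

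In the stroke hemisphere no gene passed between the genotypes. The share was 7.17% ± 0.511 in WT-ST and 7.50% ± 1.32 in Cko-ST. In limma 0 of 85 rose and 0 fell, as did 0% of all genes. At an unadjusted p under 0.05, 1 was higher and 0 lower (2 and 1 with array weights), against 1.69% and 3.15% of all genes. The median log2 fold change was 0.07, and it was -0.049 without Cko-ST 2 and -0.012 without Cko-ST 4. The lowest p belonged to Rpl5 (0.33 ± 0.15, adjusted p = 0.994), the next lowest to Rps3a1 (0.32 ± 0.16, adjusted p = 0.994), the largest positive difference to Rpl13a (0.42 ± 0.22, adjusted p = 0.994), known for its release from the ribosome under interferon, and the largest negative one to Rps19bp1 (-0.91 ± 0.70, adjusted p = 0.996).

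Paralogs and copies did not all follow their partners. Rps27 and its retrogene Rps27rt kept a ratio between 0.603 and 0.605 in all 16 stroke libraries, so the table holds 1 measurement under 2 names. Rps27 was at 152, 187, 189 and 81.1 RPKM in WT-NS and at 157, 208, 152 and 269.8 in WT-ST. Rps27 was at 289, 364, 338 and 297 RPKM in Cko-NS and at 149, 271, 222 and 184 in Cko-ST. Cko-NS was the highest group and lay above every WT-NS library, and with stroke the log2 fold change was -0.66 ± 0.25, adjusted p = 0.0857 in knockouts and 0.40 ± 0.25, adjusted p = 0.333 in controls. The 2 names were the genes called lower with stroke in knockouts under some alternatives. Rps27l, a p53-responsive paralog of Rps27, moved otherwise. Rps27l was at 62.8, 89.7, 78.8 and 79.2 RPKM in WT-NS and at 172, 149, 128 and 132 in WT-ST. Rps27l was at 42.4, 84.0, 61.0 and 63.5 RPKM in Cko-NS and at 121, 126, 88.4 and 171 in Cko-ST. It rose with stroke in both genotypes, by 0.90 ± 0.21, adjusted p = 0.0087 in controls and 1.00 ± 0.21, adjusted p = 0.00403 in knockouts, and over the 16 libraries its correlation with Rps27 was -0.26 on the log2 scale.

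Rpl22 binds RNA outside the ribosome and its paralog Rpl22l1 is known to rise when Rpl22 is lost. Rpl22 rose in control mice from 33.9 ± 10.6 to 79.5 ± 17.8 RPKM (1.24 ± 0.28, adjusted p = 0.00529), while Rpl22l1 had 94.8 ± 48.7 RPKM in WT-NS and 108 ± 25.1 in WT-ST (0.28 ± 0.32, adjusted p = 0.63). Rpl7l1 (0.49 ± 0.35, adjusted p = 0.403) did not pass in controls either, while Rpl7 did. The ratio of Rpl22 to Rpl22l1 ran from 0.187 to 1.18 over the stroke libraries. Rpl36a and its retrogene paralog Rpl36al both rose in both genotypes. Rpl36al had log2 fold changes of 1.14 ± 0.24, adjusted p = 0.00343 in controls and 1.08 ± 0.24, adjusted p = 0.00505 in knockouts, and Rpl36a 0.78 ± 0.18, adjusted p = 0.00717 in controls. Rpl37 and Rpl37rt kept a ratio of 0.525 to 0.597 in the stroke libraries and of 3.86 to 5.36 in the beta-catenin libraries, and reads of such copies cannot be assigned with certainty. Rps19bp1 had the largest fold change in control mice (2.28 ± 0.70, adjusted p = 0.0378) at a low level. Rps19bp1 was at 0.254, 1.56, 1.77 and 2.39 RPKM in WT-NS and at 2.50, 8.31, 18.2 and 26.0 in WT-ST. Its libraries varied widely, with an SD of 10.4 RPKM in WT-ST. Without Rps19bp1 and the copies Rps27rt, Rpl37rt and Rps4l, a list chosen after seeing the data, 57 of 81 genes rose with stroke in controls and 26 in knockouts.

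Genes around the ribosome were described from lists chosen with earlier results known. Of ribosomal proteins whose names fall outside the rule, 1 of 3 rose with stroke in each genotype, Gnb2l1, the small-subunit scaffold now called Rack1, by 0.97 ± 0.15, adjusted p = 0.000399 in controls and 0.87 ± 0.15, adjusted p = 0.000857 in knockouts. Fau, made as a fusion with a ubiquitin-like protein, had 0.22 ± 0.21, adjusted p = 0.576 in controls. Beside the counts that follow, 8.46% of all genes rose and 4.84% fell in controls, and 6.44% rose and 8.71% fell in knockouts. Of 8 elongation genes, 5 rose in each genotype and 0 fell. Eef1a1, which delivers transfer RNA, rose by 0.87 ± 0.16, adjusted p = 0.00109 and 0.78 ± 0.16, adjusted p = 0.00242, and Eef2, which moves the ribosome along, by 0.91 ± 0.21, adjusted p = 0.00626 in controls. Of 36 initiation genes, 10 rose in each genotype and 0 fell, with medians of 0.45 and 0.46. Eif1a had the lowest p among them, at 1.79 ± 0.16, adjusted p = 1.34e-06 and 1.52 ± 0.16, adjusted p = 9e-06, and Eif4a1, the helicase of the cap complex, had 1.38 ± 0.15, adjusted p = 7.1e-06 and 1.29 ± 0.15, adjusted p = 1.67e-05.

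Against the same shares of all genes, other messages known to carry a TOP motif gave 8 of 20 higher and 0 lower in each genotype, among them Npm1 (1.10 ± 0.19, adjusted p = 0.000771 and 0.74 ± 0.19, adjusted p = 0.0122), a nucleolar chaperone. That list shares genes with the elongation and initiation lists. Ribosome biogenesis genes gave 16 of 57 higher in controls and 12 of 57 in knockouts, 0 lower in either, with medians of 0.75 and 0.56. Fbl, the methyltransferase of ribosomal RNA, went from 7.32 to 48.5 RPKM in controls (2.55 ± 0.27, adjusted p = 8.36e-06) and rose by 1.46 ± 0.27, adjusted p = 0.00141 in knockouts. The nucleolar helicase Ddx21 rose by 1.49 ± 0.20, adjusted p = 7.58e-05 and 1.49 ± 0.20, adjusted p = 8.09e-05. Of 17 RNA polymerase I genes 2 rose in each genotype, which is near the share of all genes. The medians of these lists in the non-stroke genotype comparison were between 0.11 and 0.41, and 1 gene of them, Eif3l, rose there (1.27 ± 0.25, adjusted p = 0.0381).

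Of 20 regulators of ribosomal protein synthesis, 5 rose and 2 fell in controls, and 2 rose and 3 fell in knockouts, where 6.44% of all genes rose and 8.71% fell. Myc rose from 0.266 to 6.03 RPKM in controls (2.49 ± 0.30, adjusted p = 2.24e-05) and from 0.276 to 8.26 in knockouts (2.79 ± 0.30, adjusted p = 9e-06). Pdcd4, an inhibitor of the helicase Eif4a1, fell in both (-1.32 ± 0.25, adjusted p = 0.00194 and -1.47 ± 0.25, adjusted p = 0.000717). Larp1 (0.74 ± 0.23, adjusted p = 0.0412) and Eif4ebp1, an mTOR target that blocks cap binding (1.92 ± 0.48, adjusted p = 0.0115), rose in controls. In the quality-control and stress list 2 of 16 rose in controls and 1 in knockouts, near the 8.46% and 6.44% of all genes, with Atf4 at 1.65 ± 0.23, adjusted p = 0.00011 and 1.16 ± 0.23, adjusted p = 0.00231.

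The 85 genes moved together across libraries, with a few exceptions. The median pairwise correlation of log2(RPKM + 1) over the 16 stroke libraries was 0.71, and 0.44 once group means were removed, so part of the shared movement lay within groups. Rpl24, Rplp1 and Rpl4 followed the per-library median of the 85 most closely (r = 0.96 each), and Rpl14 (0.27), Rpl7l1 (0.32), Rps27 (0.42) and Rpl22l1 (0.44) least. Rpl14 was at 32.8, 27.0, 26.6 and 56.3 RPKM in WT-NS and at 38.7, 41.3, 29.6 and 34.1 in WT-ST. Among the control libraries Rpl14 was highest in WT-NS 4, where most of the other genes were lowest. Over all 16 libraries it was highest in Cko-ST 2, at 58.7 RPKM. Within the 85, the effect of stroke in controls showed little relation to the mean level (r = -0.22 over genes), transcript length (r = -0.03) or GC content (r = 0.23). Over all genes tested its r with transcript length was -0.17, with shorter transcripts higher. Transcripts of the 85 were short, at a median of 1059 bases against 3303 for all genes tested. With a length trend removed 46 of the 85 still rose in controls, and the median over the 85 went from 0.84 to 0.65. Genes with a pyrimidine run at the start rose in 20 of 29 (median 0.90) and those without in 25 of 35 (median 0.82).

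Outside the 85, the genes whose levels over the 16 libraries lay closest to their per-library median were Nme2, a nucleoside diphosphate kinase (Pearson r = 0.95), the predicted gene Gm12070 and the pseudogene Rplp2-ps1, whose reads may come from Rplp2 (0.94 each), Wdr89 and 2200002D01Rik (0.94 each), Impdh2, which makes guanine nucleotides (0.94), the glycolytic enzyme Gapdh (0.94), Col4a1, a basement-membrane collagen (0.94), and Pomp, a proteasome assembly factor, and Midn (0.93 each). All of these share library, depth and the contrast between hemispheres, and the correlations are descriptions over 16 libraries.

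In the beta-catenin experiment no ribosomal protein gene passed. The share of summed RPKM was 2.67, 3.45 and 2.63% in Bcat and 3.40 and 3.49% in WT, and Bcat 2 overlapped WT. Over 11252 genes limma called 0 of the 85 higher and 0 lower, and 0% of all genes. At an unadjusted p under 0.05, 0 were higher and 8 lower (12 lower with array weights), against 2.22% and 3.02% of all genes. The median log2 fold change was -0.25 over the 85, with 66 of 85 below 0, and -0.06 over all genes, with 54.2% below 0. Over the 85 it was -0.18 after median-of-ratios scaling, -0.12 with a length trend removed, and -0.35 to -0.19 without 1 library. Groups did not overlap in 24 lower and 2 higher genes, and in 11.7% of all genes for lower and 8.66% for higher. Red cell and platelet markers summed to 21145 to 42697 RPKM in Bcat and 19310.2 to 20431 in WT. The groups also stood apart in astrocyte markers (28.2 to 41.01 against 15.9 to 26.0 RPKM), leukocyte markers (1.07 to 21.8 against 0.237 to 0.243) and, at very low levels, fibroblast markers (0.846 to 1.15 against 1.28 to 1.95). The part of these shifts in the result was not tested.

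Rpl17, at the mouth of the exit tunnel, had the lowest p. Rpl17 was at 71.9, 98.0 and 63.5 RPKM in Bcat and at 161 and 152 in WT. The 3 Bcat libraries lay below both WT libraries, with a log2 fold change of -1.03 ± 0.26, adjusted p = 0.714. Rps12 had -0.91 ± 0.28, adjusted p = 0.871 and Rps13 -1.07 ± 0.33, adjusted p = 0.871, also without overlap. Rpl22l1 had the lowest fold change and a wide spread, with 8.52, 36.6 and 5.64 RPKM in Bcat and 41.1 and 59.1 in WT (-1.91 ± 0.65, adjusted p = 0.911). The highest were Rps27l (0.85 ± 0.69, adjusted p = 0.969) and Rpl37 (0.65 ± 0.38, adjusted p = 0.966), followed by Rpl37rt and Rps25 (0.44 ± 0.26, adjusted p = 0.966). Genes with large stroke effects did not pass here, as with Rps2 (-0.30 ± 0.36, adjusted p = 0.97) and Rpl10 (-0.22 ± 0.23, adjusted p = 0.969). In the 8 lists around the ribosome 0 genes passed either, with medians of -0.22 for elongation, 0.17 for initiation and -0.16 for ribosome biogenesis.

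**Figure D5:**
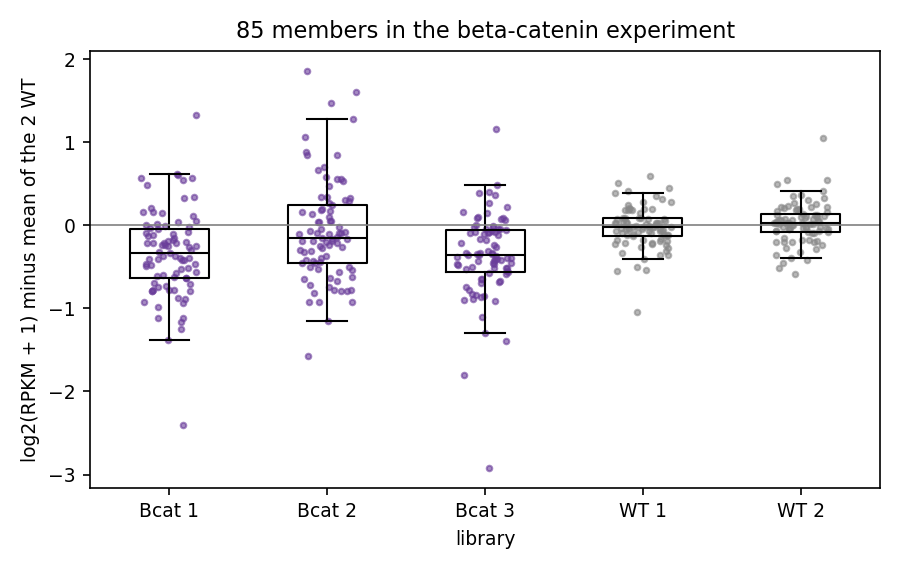
Each of the 85 genes (points) in the 5 libraries of the beta-catenin experiment, as log2(RPKM + 1) minus the mean of the 2 WT libraries, with boxes for the median and quartiles and whiskers to the last point within 1.5 box lengths. Bcat 1 and Bcat 3 have most points below 0, and Bcat 2 spreads on both sides.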

How the data were processed

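Sorted brain endothelial cells gave 21 libraries: 16 of the stroke experiment and 5 of the beta-catenin experiment. The deposited table holds RPKM values per gene, made by the authors. The submitters' processing notes name mm10 and edgeR. The aligner, annotation and gene lengths were not given in the sources used here. Entries numbered 24260, of which 54 with 23 shared names were left out, and 8 columns that match no sample were not used. Whole reads could not be recovered from the RPKM values, so no count test was run, and estimated depth (4.70 to 19.6 M reads in the stroke libraries) is approximate.

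Values were tested as log2(RPKM + 1) with limma 3.58.1 in R 4.3.3 and its mean-variance trend. Genes entered when they averaged 1 RPKM or more over an experiment, and p-values were adjusted by Benjamini-Hochberg over all genes tested. A fold change is on the log2(RPKM + 1) scale, which understates changes of low genes. The 4 stroke groups were fitted together, as were Bcat and WT. The rule for the 85 genes sets the same minimum as the filter, so all 85 were tested. The members, the gene lists and the tests were chosen with earlier results of these data known. Named genes were up to 12 with the lowest p in each direction and comparison, the 3 with the lowest p where none passed, a fixed set by role (stalk, 5S particle, exit tunnel, X-linked, disease genes, paralogs), and the 5 highest and lowest by level. Rpl8 and the window of Rpl35 were chosen after their values were seen, as were the examples from the other lists. A few genes the rule also named are not reported here.

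Replicate numbers were checked as pairs: over Cko-NS and Cko-ST the deviations of same-numbered libraries correlated at 0.100 to 0.214 over genes in all 4 pairs. Over WT-NS and WT-ST they correlated at 0.012 to 0.130, against -0.112 to 0.034 for libraries of unlike number. The other pairs of groups did not reach 0.1 in every pair. For Cko-NS and Cko-ST libraries of unlike number the range was -0.162 to 0.054. Cko-NS 4 and Cko-ST 4, which share a number, were also the stroke libraries with high Y-linked RNA (189 and 249 RPKM). The labels do not say whether a number marks a mouse, and the reported tests treated the hemispheres as unpaired. Alternatives were other scalings, pseudocounts, filters, array weights, length and GC trends, a replicate block and leaving out each library. In the stroke experiment the block gave each replicate number a term shared by control and knockout libraries, so it is not a paired test within mice. The script was tested on simulated data.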

Additional observations from a re-analysis of the deposited data

Results flagged for a closer look

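Among 43 named genes and the 4 stroke groups, 5 values lay far from the other 3 libraries of their group by Dixon's criterion for 4 samples, which chance meets in about 1 group in 20. With the per-library median and share included, 180 sets of 4 values were tested, so 5 is fewer than that rate alone would give. Rpl4 was lowest in WT-NS 4 at 210.8 RPKM, where the other WT-NS libraries had 308 to 317. Rps13 was highest in WT-ST 4 at 376.0 RPKM against 361 to 362, a gap of little size in a tight group. In Cko-NS 4 Rps13 was lowest at 193.9 RPKM against 285 to 295, and Rps3a1 was lowest at 160.1 RPKM against 226 to 238. Cko-NS 4 is a library whose sex genes went against its label. Rps19bp1 was highest in Cko-ST 4 at 23.7 RPKM against 1.74 to 3.97.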

How the results depend on the processing

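With stroke in control mice between 46 and 66 of the 85 genes rose under every alternative run and 0 fell (57 of 81 without the copies and the binding protein, chosen after seeing the data). Leaving out 1 library gave 47 to 61, with the lowest count without WT-NS 4 and without WT-ST 4. In knockouts the 26 genes became 40 with median-of-ratios scaling and 44 with a GC trend removed, and 21 to 31 without 1 library. Genes called lower there, 0 in the reported fit, were 2 with quantile normalization, cyclic loess, a length trend removed or array weights, namely Rps27 and Rps27rt, and 1 when only the 2 groups were fitted, Rps27rt. The 1 gene higher in Cko-NS, Rps25, became 0 with median-of-ratios scaling, scaling by genes other than the 85, a length or GC trend removed, no filter on low values, or only the 2 groups fitted. That count was 6 with a mean RPKM of at least 5, 10 with array weights and 5 with the replicate block, and ran from 0 to 2 without 1 library (0 without WT-NS 1, WT-NS 4, Cko-NS 1, Cko-NS 2 or Cko-NS 3, and 2 without WT-NS 2). The replicate block gave 63 genes in controls and 27 in knockouts. Over Cko in the stroke hemisphere, the interaction and Bcat, counts stayed at 0 in every alternative. The median of the Cko-ST against WT-ST difference was 0.07, and between -0.049 (without Cko-ST 2) and 0.15 (without Cko-ST 3) on leaving out 1 library, with -0.012 without Cko-ST 4. With a length trend removed the median over the 85 shrank from -0.38 to -0.12 for the interaction, from 0.47 to 0.19 in Cko-NS and from -0.25 to -0.12 in Bcat (-0.17 there with cyclic loess). For stroke the same step took the median from 0.84 to 0.65 in controls and from 0.41 to 0.43 in knockouts. Median-of-ratios scaling also lowered the genes of the whole table called lower in knockouts from 857 to 604. The cause of these shifts was not tested. Depth of 4.70 to 19.6 M reads limits genes of a few RPKM, such as Rps19bp1, Rps4l and Rpl7l1.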
